A study of Microtus ochrogaster with 40 samples.

Results

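Glutamate nuclei that carried RNA of Ccn3 were examined in single-nucleus RNA sequencing of nucleus accumbens tissue from the prairie vole, Microtus ochrogaster. A nucleus was taken when it held at least 1 unique molecular identifier (UMI, a count of 1 captured RNA molecule) of Slc17a7, at least 1 of Ccn3, and 0 of each of Slc30a3, Neurod1, Hs3st4, Rxfp2, Drd1a and Drd2. This gave 3787 nuclei, 2.04% of the 185995 nuclei kept and 9.51% of the 39823 nuclei with Slc17a7. The 8 genes of this rule were chosen from these same data, so their values are given as description only and support nothing here.

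The tissue came from 40 animals, with no gene manipulation named in the labels. Punches of frozen brain were homogenised, nuclei were separated on an iodixanol gradient and sequenced with 10x Genomics droplets, 1 library per animal. Every animal had been housed for 16 days with a partner it had not met before. The partner was of the opposite sex for mates and of the same sex for peers, which gave 11 females and 11 males with a mate, and 8 females and 10 males with a peer. The labels state no age, name no partners and name no sequencing batch, so any dependence between cage partners could not be modelled. The animal is the replicate throughout, numbered within its group.

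Ccn3 encodes a secreted matricellular protein of the CCN family, which binds integrins and can interact with Notch receptors at the cell surface. Slc17a7 encodes the vesicular glutamate transporter VGLUT1, which is typical of cortical, hippocampal and amygdalar projection neurons. The projection neurons of the accumbens itself are GABAergic medium spiny neurons, and its VGLUT1 protein is carried mainly by axons that arrive from those other regions. Whether the Slc17a7 nuclei lay within the accumbens or in tissue next to it cannot be told apart here.

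The 40 libraries held between 1793 and 8204 kept nuclei and between 3002288 and 14907749 UMIs in them. Male mate 2 stood apart, with more barcodes and lower depth than the other libraries, and results that change without it are given beside the result or in the closing section. Of 164425 distinct barcode sequences, 19903 (12.1%) occurred in more than 1 library, with at most 85 shared by any pair of libraries, and 5 of the 3782 sequences among the Ccn3 glutamate nuclei did so. Barcodes scored as doublets were kept, and 3624 of the 3787 nuclei remained when they were left out.

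The Ccn3 glutamate nuclei had a median of 2229 UMIs and 1628 genes per nucleus. The median animal had 89.50 of them, male peer 5 the fewest with 2 and male peer 8 the most with 250. The 39 animals with at least 20 such nuclei entered the tests of genes, and male peer 5 did not. In these 39 animals the summed Ccn3 glutamate nuclei held between 55380 and 730197 UMIs, with a median of 247565.

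Ccn3 RNA was not restricted to the nuclei taken by the rule. It was detected in 11385 nuclei, of which 9095 also held Slc17a7, and the 3787 nuclei taken are 41.6% of those 9095. Among the 9095, 3330 (36.6%) held Slc30a3 or Neurod1, 1732 (19.0%) held Hs3st4 or Rxfp2, and 1412 (15.5%) held Drd1a or Drd2. The rule left out 2102 (23.1%) of them for exactly 1 UMI of these 6 genes in all. Slc30a3 encodes a vesicular zinc transporter of upper-layer and limbic cortical neurons, and Neurod1 a neuronal transcription factor. Hs3st4 encodes a heparan sulfate sulfotransferase that marks deep cortical layers, and Rxfp2 a relaxin family peptide receptor.

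Depth bears on who was counted, so detection was also compared after every nucleus was thinned to 1000 UMIs, which left out 62577 shallower nuclei (17037 of female mates, 11152 of female peers, 20410 of male mates and 13978 of male peers). The rule and the kinds of nuclei were applied again to the thinned counts. A nucleus could thus change kind when UMIs of the genes of the rule were lost. Intervals are exact 95% Clopper-Pearson intervals and cover counting error only. Before thinning, Ccn3 was seen in 22.8% of all Slc17a7 nuclei (22.4 to 23.3), and in 1.39% (1.30 to 1.49) of Drd1a or Drd2 nuclei without Slc17a7, medium spiny neurons by these receptors. The median depths of these 2 kinds were similar, at 2118 and 2106 UMIs. After thinning, the shares were 12.8% (12.4 to 13.2) and 0.677% (0.596 to 0.766).

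The Slc17a7 nuclei can be divided by the genes of the rule. Thinned, Ccn3 was seen in 17.0% (15.7 to 18.3) of Slc17a7 nuclei with Slc30a3 or Neurod1 only, in 12.7% (12.2 to 13.3) of those with none of the 6 genes, and in 11.7% (10.5 to 12.8) of those with Hs3st4 or Rxfp2 only. These shares pool the nuclei of all animals and are given without a test. Before thinning, these shares were 36.5%, 19.0% and 21.3%, at median depths of 2765, 1460 and 2368 UMIs.

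Detection of Ccn3 was also read in nuclei with markers of glia, blood vessels or GABA neurons. Thinned, the share was 1.07% in nuclei with Gad1 or Gad2, 1.37% with oligodendrocyte precursor markers, 1.89% with astrocyte markers, 1.91% with oligodendrocyte markers, 2.70% with vascular markers and 4.37% with microglia markers. The last rested on 595 nuclei, with an interval from 2.87% to 6.34%. Such nuclei also held Slc17a7 at a low rate, from 7.73% with Gad1 or Gad2 to 20.4% with vascular markers before thinning. Thinned, the share with both Ccn3 and Slc17a7 was 0.222% with Gad1 or Gad2, 0.757% with astrocyte, 0.764% with oligodendrocyte and 2.18% with microglia markers. These kinds are thus not separate from Slc17a7 nuclei. By the same marker rules 469 of the Ccn3 glutamate nuclei (12.4%) also counted as glial, vascular or GABA nuclei. The part of doublets and free RNA in those 469 was not tested.

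**Figure D1:**
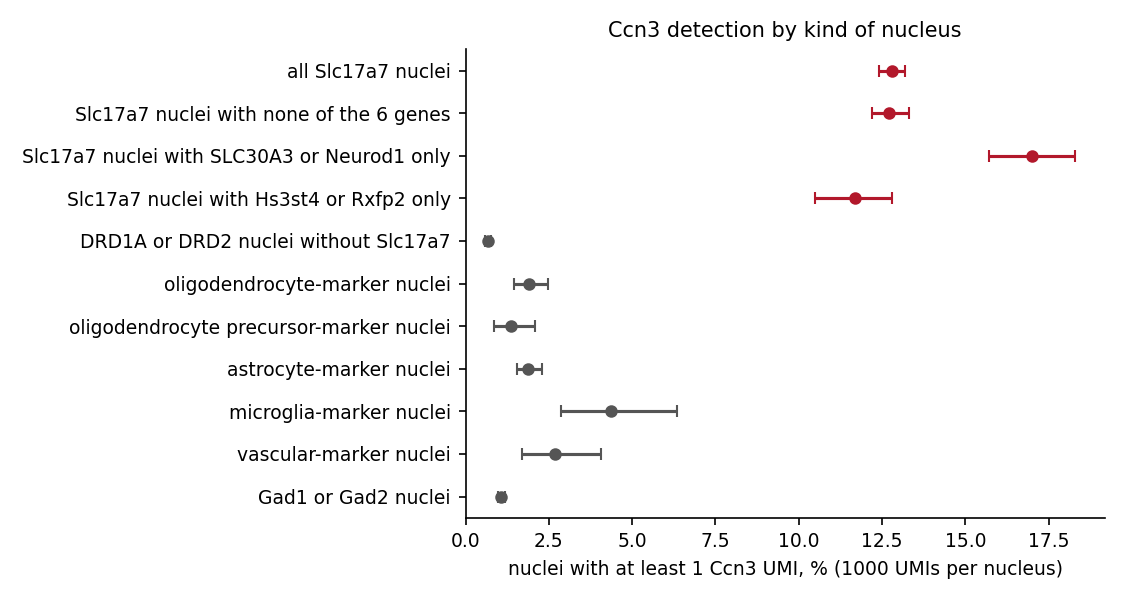
Share of nuclei with at least 1 Ccn3 UMI after thinning every nucleus to 1000 UMIs (x axis, percent), by kind of nucleus (y axis). Kinds by glial, vascular or GABA neuron markers include nuclei that also hold Slc17a7. Points are shares and bars are 95% Clopper-Pearson intervals; the kinds of Slc17a7 nuclei lie between 11.7% and 17.0%, and the other kinds plotted lie between 0.677% and 4.37%.

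The label of these nuclei names 5 markers, Ccn3, Cck, Tbr1, Efhd2 and Vsnl1, and Ccn3 is part of the rule. Cck encodes the peptide cholecystokinin, Vsnl1 the neuronal calcium sensor VILIP-1, Tbr1 a transcription factor of postmitotic glutamate neurons, and Efhd2 an EF-hand calcium-binding protein. A UMI of Cck was seen in 60.0% of the Ccn3 glutamate nuclei, of Vsnl1 in 54.1%, of Efhd2 in 35.5% and of Tbr1 in 23.1%. Thinned to 1000 UMIs, these shares were 51.8%, 34.2%, 20.2% and 11.8%. Of the 3787 nuclei, 197 (5.20%) held all 4, 717 (18.9%) held 3, 1244 (32.8%) held 2, 1112 (29.4%) held 1 and 517 (13.7%) held none.

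To ask which genes went with Ccn3, UMIs were summed per animal over the Ccn3 glutamate nuclei and over 3 other kinds of glutamate nuclei with 0 Ccn3 UMIs, and the sums were compared within animals. The first kind met the same rule with 0 Ccn3 (16163 nuclei, median 1298 UMIs). The second held Slc30a3 or Neurod1 (4489 nuclei, median 2431 UMIs), and the third held Hs3st4 or Rxfp2 (4017 nuclei, median 2249 UMIs). The comparison kinds were chosen by layer genes, so differences in genes that go with those layers are partly set by that choice. Levels are given as CPM, the UMIs of a gene scaled to a fixed total of all UMIs in the summed nuclei. Each log2 fold change with its Benjamini-Hochberg adjusted p is from edgeR's quasi-likelihood test over all genes tested. Its standard error (SE) is an approximation, the absolute log2 fold change divided by the square root of that test's F statistic. In summed nuclei, fewer expressing nuclei and less RNA per nucleus cannot be told apart.

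Against nuclei of the same rule with 0 Ccn3, 7827 genes were tested, of which 1646 (21.0%) were higher and 1305 (16.7%) lower in Ccn3 glutamate nuclei, 37.7% in either direction. Of the calls, 55.8% were thus higher, and 44.4% were when library totals were used without TMM factors. Of the 4 markers outside the rule, Cck and Vsnl1 were higher and the others did not pass the test. The nuclei with 0 Ccn3 UMIs, called Ccn3-free here, were shallower and had higher levels of markers of other cell types. A count of 0 at this depth does not show that a nucleus lacked Ccn3 RNA. The summed level of 14 GABA neuron markers had a median of 429 CPM (100 to 2483) in Ccn3 glutamate nuclei and 855 CPM (429 to 2483) in the Ccn3-free nuclei. For 12 medium spiny neuron markers outside the rule the medians were 727 (533 to 1151) and 1755 CPM (957 to 2968). For 7 oligodendrocyte markers they were 352 (116 to 1338) and 1477 CPM (564 to 3617), and for 8 astrocyte markers 719 (432 to 1824) and 1874 CPM (860 to 3399). None of these lists had a gene at 0 in every animal. Nuclei with at least 3 Slc17a7 UMIs, a choice added after seeing the data, brought these levels closer (medians of 213 against 267, 627 against 700, 286 against 398 and 586 against 910 CPM) and their values are given below for the gene lists and for named genes whose call or direction they change. At this stricter Slc17a7 threshold 38 animals entered.

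Cck ranged from 393 to 2149 CPM with a median of 1020 in the Ccn3 glutamate nuclei of 39 animals, and from 397 to 1122 with a median of 740 in the Ccn3-free nuclei. The ranges overlapped, and within animals Cck was higher in 36 of 39. Its log2 fold change was 0.49 (SE 0.05, adjusted p = 1.06e-14), and 0.24 (adjusted p = 1.41e-06) with at least 3 Slc17a7 UMIs. Vsnl1 ranged from 273 to 811 CPM (median 464) against 165 to 609 (median 361). It was higher in 37 of 39 animals, with a log2 fold change of 0.46 (SE 0.04, adjusted p = 1.43e-14) and of 0.29 with at least 3 Slc17a7 UMIs.

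Tbr1 and Efhd2 did not set Ccn3 glutamate nuclei apart from the Ccn3-free ones. Tbr1 ranged from 67.3 to 180 CPM (median 108) against 68.6 to 169 (median 123), with a log2 fold change of -0.04 (SE 0.06, adjusted p = 0.611). Efhd2 ranged from 112 to 405 CPM (median 233) against 106 to 397 (median 234), with a log2 fold change of -0.00 (SE 0.04, adjusted p = 0.972). With at least 3 Slc17a7 UMIs both were lower, Tbr1 by a log2 fold change of -0.38 (adjusted p = 1.05e-06) and Efhd2 of -0.24 (adjusted p = 0.000111). On this comparison the data go against these genes as markers, and the nuclei are called here by their rule.

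The genes most raised against the Ccn3-free nuclei, by the rule for named genes, were Npr3, Bcl6, Kcng1, Cdh7, Adcyap1, Cacna1h, Rtn4rl2, Ndst3, Trmt9b, Bhlhe40, Tcerg1l and Lamp5, with log2 fold changes from 1.37 for Npr3 to 0.84 for Lamp5. Bcl6, a transcriptional repressor with a role in cortical neuron differentiation, ranged from 19.3 to 154 CPM (median 95.4) against 18.2 to 78.4 (median 35.7). It was higher in 38 of 39 animals (log2 fold change 1.18, SE 0.08, adjusted p = 1.69e-22). Npr3, the natriuretic peptide clearance receptor, ranged from 4.99 to 126 CPM (median 33.4) against 3.50 to 55.3 (median 14.9), and was higher in 34 of 39 animals. For both genes the ranges overlapped. Raised genes that were low in the Ccn3-free nuclei could pass the filter on low counts through the Ccn3 glutamate nuclei alone.

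Among the others, Kcng1, a modifier subunit of voltage-gated potassium channels, was higher in all 39 animals (68.5 CPM ± 20.2 against 33.5 ± 12.6, SD, n = 39). Cacna1h, which encodes a T-type calcium channel, averaged 45.3 against 24.7 CPM, and Cdh7, a cadherin, 88.1 against 45.6 CPM. Adcyap1, the precursor of the peptide PACAP, averaged 61.9 CPM ± 30.5 against 33.4 ± 14.7 (SD, n = 39) and was higher in 33 of 39 animals. Rtn4rl2 encodes a Nogo receptor homolog, Bhlhe40 an activity- and clock-related transcriptional repressor, and Lamp5 a lysosome-associated membrane protein of upper cortical layers. With at least 3 Slc17a7 UMIs the log2 fold changes were 1.28 for Bcl6, 1.04 for Cdh7, 0.94 for Bhlhe40, 0.79 for Kcng1, 0.73 for Lamp5 and for Adcyap1, and 0.51 for Rtn4rl2. Cacna1h was at 1.13, Tcerg1l at 0.76 and Ndst3 at 0.67, and Npr3 and Trmt9b did not pass the filter on low counts at that threshold and were not tested.

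The 12 genes most lowered in the same comparison were Adora2a, Gpr6, Slc7a10, Slc7a11, Cldn11, Fetub, Mag, Mog, S1pr1, Lgi4, Nexn and Ugt8a. Adora2a and Gpr6 mark medium spiny neurons of the Drd2 type, Cldn11, Mag, Mog and Ugt8a are genes of myelinating oligodendrocytes, and Slc7a10 and Slc7a11 are amino acid transporters abundant in astrocytes. Adora2a ranged from 0 to 34.0 CPM (median 10.0) in Ccn3 glutamate nuclei against 15.2 to 104 (median 60.5), with a log2 fold change of -2.34 (SE 0.13, adjusted p = 1.04e-25). It was lower in 38 of 39 animals. Adora2a, Gpr6, Mag and Mog also stand in the marker lists summed above, so their falls are not separate from those sums. Genes this low in Ccn3 glutamate nuclei could pass the filter on low counts through the Ccn3-free nuclei alone. The source of these falls was not tested. With at least 3 Slc17a7 UMIs the largest falls were instead in Col5a1 (-1.62), Syt6 (-1.34), Fap (-1.12) and Lrrc55 (-1.12), followed by Nxph3. With that threshold 2145 of 6644 genes were called (32.3%), 1154 of them higher (17.4%) and 991 lower (14.9%). Of the 2145, 1567 were also called without it, 15 of them with the opposite sign.

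Genes of cortical layer 5 rose together in this comparison. Of 8 tested, 7 were higher, none was lower and Sulf2 did not pass the test (log2 fold change 0.01). The median log2 fold change was 0.45, against 0.00 over all genes tested, of which 21.0% were higher and 16.7% lower. Besides Npr3, the risen genes were Crym (0.73), Parm1 (0.64), Fezf2 (0.46), Etv1 (0.45), Ldb2 (0.36) and Bcl11b (0.26). Crym encodes a thyroid hormone-binding protein, Fezf2 and Bcl11b are transcription factors of subcortically projecting neurons, and Etv1 is a transcription factor of layer 5. With at least 3 Slc17a7 UMIs 4 of 7 were higher, with a median of 0.36, where 17.4% of all genes tested were higher. Fezf2 (0.19, adjusted p = 0.0604) and Ldb2 (0.22, adjusted p = 0.0502) no longer passed there. In nuclei thinned to 1000 UMIs Fezf2 (-0.08, adjusted p = 0.740) and Etv1 (0.14, adjusted p = 0.549) did not pass. Kinds were assigned anew from the thinned counts, so these values do not compare the same nuclei at equal depth.

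Genes of layer 6 and the subplate were mostly lower. Of 7 tested, 5 fell and 2 rose, with a median log2 fold change of -0.55, where 16.7% of all genes tested fell and 21.0% rose. Syt6, a synaptotagmin of layer 6, ranged from 2.51 to 140 CPM (median 37.8) against 54.3 to 214 (median 108). Its log2 fold change was -1.47 (SE 0.10, adjusted p = 1.69e-22), with lower values in 37 of 39 animals. Nxph3 (-0.68), Tle4 (-0.64), Sema5b (-0.55) and Sulf1 (-0.41) also fell. The genes that rose were Ccn2 (0.64), a CCN family relative of Ccn3 that is known from subplate neurons, and Nxph4 (0.37, adjusted p = 0.0342). Nxph4 did not pass in DESeq2 (0.34, adjusted p = 0.105), with at least 40 nuclei per animal (0.31, adjusted p = 0.0835) or with library totals in place of TMM factors (0.34, adjusted p = 0.0504). Thinned to 1000 UMIs, Nxph3 did not pass (-0.10, adjusted p = 0.641). The stricter Slc17a7 threshold left 4 of these genes, of which 3 were lower and 1 higher (median -0.84). Of all genes tested at that threshold 14.9% were lower and 17.4% higher.

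Upper-layer genes were divided, with 2 of 6 higher (Lamp5 among them), 3 lower and a median of -0.14. The shares over all genes tested were 21.0% higher and 16.7% lower. Calb1, which encodes calbindin, fell by 0.65 and Plxnd1, a semaphorin receptor, by 0.51 on the log2 scale. Cux2, a transcription factor of upper layers, did not pass. At the stricter Slc17a7 threshold 3 upper-layer genes were tested, of which Lamp5 was higher and none was lower. Of 10 general glutamate neuron genes 5 were higher and 1 lower, with a median of 0.22. Those that rose included Nrgn (0.56), which encodes the postsynaptic protein neurogranin, Sv2b (0.52), a synaptic vesicle glycoprotein, and Camk2a (0.29), the calmodulin-dependent kinase subunit. Neurod6 did not pass (-0.14, adjusted p = 0.125), but it was lower with at least 3 Slc17a7 UMIs (-0.47, adjusted p = 7.76e-08) and with at least 2 Ccn3 UMIs (-0.56, adjusted p = 5.98e-05). The balance of the glutamate neuron list turned at the stricter Slc17a7 threshold, to 3 higher and 4 lower of 9 (median 0.08).

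Of 13 receptor genes for neuropeptides, steroids and monoamines, 9 were higher and 3 lower, with a median of 0.25. Over all genes tested 21.0% were higher and 16.7% lower, and 17.4% and 14.9% at the stricter Slc17a7 threshold. The serotonin receptor Htr2c had a log2 fold change of 0.57, the somatostatin receptor Sstr1 of 0.40, the cannabinoid receptor Cnr1 of 0.25 and the cholecystokinin receptor Cckbr of 0.21. Cckbr reversed with at least 3 Slc17a7 UMIs, to -0.13 (adjusted p = 0.0259). In nuclei thinned to 1000 UMIs Cckbr (0.07, adjusted p = 0.501) and Sstr1 (0.14, adjusted p = 0.541) did not pass, nor did the neuropeptide gene Vgf (0.15, adjusted p = 0.0555). Of 9 neuropeptide genes 3 were higher (Adcyap1, Cck and Vgf) and 5 lower, with a median of -0.60. Penk, the enkephalin precursor that is abundant in medium spiny neurons, was among those lower, with a log2 fold change of -1.97. Here too the balance turned at the stricter Slc17a7 threshold, to 4 higher and 2 lower of 6 neuropeptide genes (median 0.19), and Penk was at -0.43 (adjusted p = 0.00280). With 6 genes tested there in place of 9, the counts do not cover the same genes. The receptor list then had 4 higher and 1 lower of 8 (median 0.06).

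Of 12 calcium-binding and sensor genes, 7 were higher and 2 lower, with a median of 0.15, where 21.0% of all genes tested were higher and 16.7% lower. With library totals in place of TMM factors 1369 of all 7827 genes were higher and 1715 lower. Calm2 (0.45) and Calm3 (0.39), which encode calmodulin, were among those that rose. The list had 5 of 11 higher and 2 lower (median 0.06) at the stricter Slc17a7 threshold. Of 11 immediate early genes, which respond to neuronal activity, 5 were higher and none lower (median 0.20), but with library totals in place of TMM factors 2 were higher, and with at least 3 Slc17a7 UMIs none of 9 was higher and 2 were lower. Among partners and relatives of Ccn3, 5 were tested, of which Ccn2 was higher and 4 were lower. Notch1 fell by 1.85 and the integrin subunit Itgb1 by 0.65 on the log2 scale, and Ccn1 by 0.87. The astrocyte markers had a median of -1.75 in the same comparison, and the source of these falls was not tested. Only 3 of these were tested at the stricter Slc17a7 threshold, of which Ccn2 was higher and Itgb1 lower. Markers of other cell types fell as well, with 6 of 6 GABA neuron markers (Gad2 by 1.15), 10 of 10 medium spiny neuron markers, 5 of 5 oligodendrocyte markers and 5 of 5 astrocyte markers (Gja1 by 1.92). The filter on low counts could be passed through the Ccn3-free nuclei alone, so these counts are partly set by it. With at least 3 Slc17a7 UMIs fewer of these markers passed the filter on low counts, and the falls of the rest could not be read. Of those tested, 1 of 3 GABA neuron, 4 of 7 medium spiny neuron, 1 of 2 oligodendrocyte and 1 of 2 astrocyte markers were lower. At that threshold 1 medium spiny neuron marker was higher. Gad2 no longer passed there (-0.11, adjusted p = 0.551).

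The second comparison set Ccn3 glutamate nuclei against Slc30a3 or Neurod1 nuclei of similar depth. Of 6236 genes tested, 1612 (25.8%) were higher and 1640 (26.3%) lower, 52.1% in either direction. Sums of markers of other cell types were also closer here, with medians of 429 against 265 CPM for GABA neurons, 727 against 661 for medium spiny neurons, 352 against 311 for oligodendrocytes and 719 against 708 for astrocytes. Single markers leaned the other way from the first comparison. In Ccn3 glutamate nuclei 2 of 4 GABA neuron, 2 of 7 medium spiny neuron, 2 of 2 oligodendrocyte and 2 of 3 astrocyte markers were higher. None was lower. Vsnl1 and Efhd2 were higher in Ccn3 glutamate nuclei, with log2 fold changes of 0.47 and 0.41. Cck and Tbr1 did not pass, at -0.00 (adjusted p = 0.992) and -0.05 (adjusted p = 0.519). In nuclei thinned to 1000 UMIs Cck was higher, by 0.22 (adjusted p = 0.000979).

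The layer 5 genes were higher in 7 of 7 cases, with a median log2 fold change of 1.13 against -0.01 over all genes. Of all genes tested 25.8% were higher and 26.3% lower. Since Slc30a3 and Neurod1 chose the other nuclei, this direction is partly set by the choice. Layer 5 genes could also pass the filter on low counts through the Ccn3 glutamate nuclei alone. Fezf2 ranged from 15.0 to 196 CPM (median 89.6) in Ccn3 glutamate nuclei and from 0 to 65.4 (median 23.2) in Slc30a3 or Neurod1 nuclei. It was higher in 37 of 39 animals, with a log2 fold change of 1.84 (SE 0.11, adjusted p = 3.74e-25). Sulf2 (1.39), Parm1 (1.35), Crym (1.13), Etv1 (1.11), Bcl11b (0.85) and Ldb2 (0.65) followed. The count was 7 of 7 with at least 3 Slc17a7 UMIs as well, where 46.3% of 5760 genes were called, 23.3% higher and 23.0% lower.

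Other genes most raised by the naming rule were Bcl6 (1.64), Rgma (1.61), Vat1l (1.53), Cdh7 (1.41) and Cntnap4 (1.23). Rgma encodes a repulsive guidance molecule and Cntnap4 a contactin-associated adhesion protein. Vat1l, a gene known from layer 5 extratelencephalic neurons, was higher in 39 of 39 animals, at 76.1 CPM ± 43.3 against 26.9 ± 19.2 (SD, n = 39). Bcl6 had medians of 95.4 and 28.7 CPM, and its ranges, 19.3 to 154 and 13.1 to 61.9, overlapped. Raised genes that were low in Slc30a3 or Neurod1 nuclei could pass the filter on low counts through the Ccn3 glutamate nuclei alone.

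Among those lowered by the same rule were Plxnd1 (-1.95), Plk5, Kcnh4, Kcnh5, Disp3, Il1rap and Fsip2 (-1.07). Plxnd1 ranged from 4.04 to 66.8 CPM (median 22.4) against 27.6 to 207 (median 86.3) and was lower in 38 of 39 animals (SE 0.11, adjusted p = 7.07e-27). Kcnh4 and Kcnh5 encode voltage-gated potassium channels. Lowered genes could pass the filter on low counts through the Slc30a3 or Neurod1 nuclei alone. Of 5 upper-layer genes tested 4 were lower and only Lamp5 (0.28) was higher, with a median of -0.38. Of all genes tested 26.3% were lower and 25.8% higher. Slc30a3, which helped to choose the other nuclei, stands in the same list, so this direction is partly set by the choice. Cux2 fell by 1.01 and Cux1 by 0.38 on the log2 scale. Calb1 fell by 0.32, with an adjusted p of 0.0480, and did not pass in DESeq2 (-0.27, adjusted p = 0.170), without doublets (-0.25, adjusted p = 0.106) or when male mate 2 was left out (-0.31, adjusted p = 0.0540). Lamp5 did not pass in nuclei thinned to 1000 UMIs (0.08, adjusted p = 0.516).

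All 5 claustrum and endopiriform genes tested were higher, with a median of 0.54, among them Lxn (0.82), Gng2 (0.71) and Ntng2 (0.54). With at least 3 Slc17a7 UMIs 3 of 4 were, and with library totals in place of TMM factors 4 of 5 (median 0.50). Of all 6236 genes 25.8% were higher and 26.3% lower, and with library totals 1400 were higher and 1947 lower. The claustrum and endopiriform list was not raised in the other comparisons. Against the Ccn3-free nuclei 1 of 7 was higher and 3 lower (median -0.17), with 0 higher and 4 lower of 5 (median -0.38) at the stricter Slc17a7 threshold, and against Hs3st4 or Rxfp2 nuclei 1 of 5 was higher and 1 lower (median 0.14). Of 8 immediate early genes 5 were lower and none higher, with a median of -0.25. Arc fell by 0.44, Egr1 by 0.37 and Egr3 by 0.32 on the log2 scale. Of 7 neuropeptide genes 3 were higher and none lower: Scg2 (0.63), Vgf (0.54) and Adcyap1 (0.49), of which the first pair encode granin family proteins. At the stricter Slc17a7 threshold 3 of 5 neuropeptide genes were higher and 1 lower. Calm2 (0.56) and Calm3 (0.59) were higher, with 6 of 12 calcium genes higher and 2 lower. Mef2c (-0.27), Camk2a (-0.18) and the serotonin receptor Htr2a (-0.29) were lower, while Sstr1 (0.36) was higher. Camk2a did not pass in thinned nuclei (-0.12, adjusted p = 0.0544) or with at least 2 Ccn3 UMIs (-0.10, adjusted p = 0.0956). The integrin subunit Itgav was the only gene of the CCN list tested, and it did not pass (-0.13, adjusted p = 0.0642). It was lower with at least 3 Slc17a7 UMIs (-0.19, adjusted p = 0.0120) and with library totals in place of TMM factors (-0.17, adjusted p = 0.0194).

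**Figure D2:**
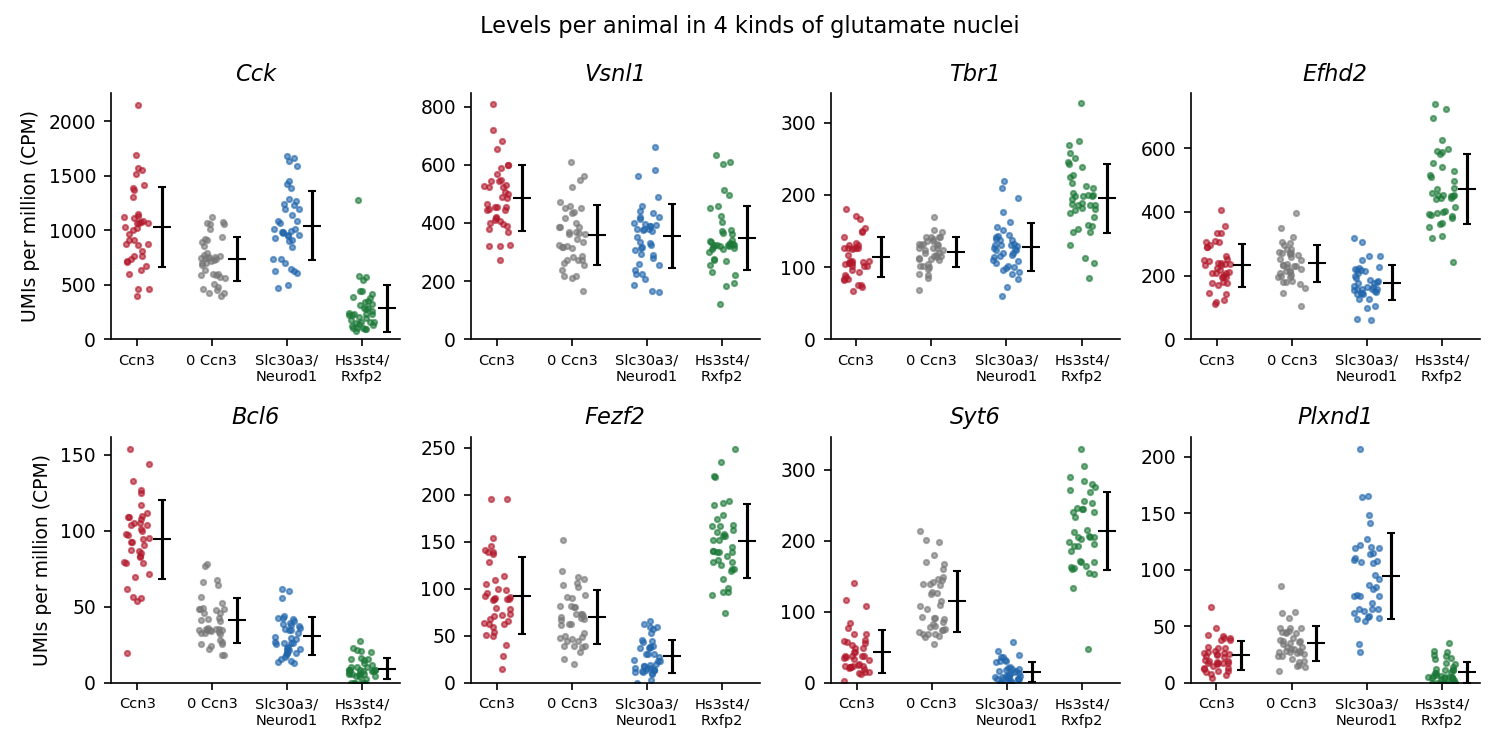
Level of 8 genes in CPM (y axes, linear from 0) in the Ccn3 glutamate nuclei and the 3 other kinds of glutamate nuclei (x axis). Each point is 1 of 39 animals, and black bars are mean and SD; Bcl6 has its highest median (95.4 CPM) in Ccn3 glutamate nuclei, Syt6 its highest in Hs3st4 or Rxfp2 nuclei (206 CPM) and Plxnd1 in Slc30a3 or Neurod1 nuclei (86.3 CPM).

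The third comparison, against Hs3st4 or Rxfp2 nuclei, gave the most calls for the number of genes tested. Of 6101 genes, 1848 (30.3%) were higher and 1904 (31.2%) lower, 61.5% in either direction. Marker sums of other cell types had medians of 429 against 251 CPM for GABA neurons, 727 against 783 for medium spiny neurons, 352 against 342 for oligodendrocytes and 719 against 1597 for astrocytes. The last list holds Slc1a2, which encodes the glutamate transporter GLT-1 and fell by 1.28 on the log2 scale. Of the 3 astrocyte markers tested, however, 2 were higher and 1 lower in Ccn3 glutamate nuclei (median 0.54). Higher too were 2 of 3 GABA neuron and 2 of 2 oligodendrocyte markers, with none lower. Of 7 medium spiny neuron markers 1 was higher and 2 lower. Cck had its largest difference here. It ranged from 393 to 2149 CPM (median 1020) against 71.7 to 1281 (median 229), with a log2 fold change of 2.00 (SE 0.09, adjusted p = 9.35e-31) and higher values in 38 of 39 animals.

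Vsnl1 was higher by 0.52 in 36 of 39 animals, so that it was the only 1 of the 4 markers outside the rule that was higher in all 3 comparisons. Efhd2 was lower in all 39 animals, from 112 to 405 CPM against 243 to 738, with a log2 fold change of -0.99 (SE 0.05, adjusted p = 6.40e-27). Tbr1 fell by 0.75 on the log2 scale and was lower in 38 of 39 animals. The order of the medians for Efhd2 was thus 453 CPM in Hs3st4 or Rxfp2 nuclei, 234 in the Ccn3-free nuclei, 233 in Ccn3 glutamate nuclei and 166 in Slc30a3 or Neurod1 nuclei, where the middle pair did not pass the test of their difference.

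The genes most raised against Hs3st4 or Rxfp2 nuclei were Ndst4 (4.36), Bcl6 (3.30), Syt17, Pcdh8 (2.71), Cdh7 (2.69), C1ql3 (2.58), Bhlhe40 (2.58) and Gpc4 (2.45). Ndst4, an enzyme that modifies heparan sulfate chains, ranged from 16.8 to 497 CPM (median 122) against 0 to 43.4 (median 3.72). Its level in Slc30a3 or Neurod1 nuclei was of the same order, with a median of 162 CPM. Bcl6 ranged from 19.3 to 154 CPM against 0 to 27.8, and was higher in all 39 animals (SE 0.13, adjusted p = 4.06e-35). C1ql3, a secreted synaptic C1q-like protein, averaged 378 CPM ± 84.8 against 64.3 ± 34.2 (SD, n = 39). Genes as low as Ndst4 and Bcl6 in the Hs3st4 or Rxfp2 nuclei could pass the filter on low counts through the Ccn3 glutamate nuclei alone.

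Most lowered were Col5a1 (-3.51), Adamts18 (-2.98), Ptprb (-2.54), Rai14 (-2.40), Nxph3 (-2.38), Syt6 (-2.37), Thsd7b (-2.33) and Prss12 (-2.26), each lower in all 39 animals. Col5a1, a fibrillar collagen chain, averaged 42.2 CPM ± 25.2 against 505 ± 254 (SD, n = 39). The layer 6 and subplate genes fell in 7 of 7 cases, with a median of -1.86 against -0.02 over all genes, among them Sema5b (-1.87), Nxph4 (-1.86), Tle4 (-1.79), Sulf1 (-1.71) and Ccn2 (-1.49). Since Hs3st4 and Rxfp2 chose the other nuclei and stand in the same list, this direction is partly set by the choice. The filter on low counts could also be passed through those nuclei alone. Of all genes tested in this comparison 31.2% were lower. Against Slc30a3 or Neurod1 nuclei 0 genes of this list passed it.

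Layer 5 genes were divided in this comparison, with 4 of 7 higher, 2 lower and a median of 0.25, where 30.3% of all genes tested were higher and 31.2% lower. Etv1 (1.09), Parm1 (0.82), Crym (0.28) and Bcl11b (0.25) were higher, while Fezf2 (-0.63) and Sulf2 (-0.63) were lower. Fezf2 was therefore between the other kinds, with medians of 144 CPM in Hs3st4 or Rxfp2 nuclei, 89.6 in Ccn3 glutamate nuclei, 68.4 in the Ccn3-free nuclei and 23.2 in Slc30a3 or Neurod1 nuclei. Both upper-layer genes tested, Lamp5 (1.85) and Cux1 (0.62), were higher. Of 9 glutamate neuron genes 4 were higher, among them Nrgn (1.30), Mef2c (0.91) and Camk2a (0.76), and 4 lower, among them Slc17a6 (-1.12), which encodes VGLUT2, and Nptx1 (-0.99).

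Among signalling genes, 3 of 6 receptor genes were higher and 2 lower (median 0.19). Over all genes tested in this comparison 30.3% were higher and 31.2% lower, and the counts by list were not tested against these shares. Cnr1 had a log2 fold change of 2.04, with 372 CPM ± 122 against 94.6 ± 47.9 (SD, n = 39) and higher values in all 39 animals. Sstr1 (0.64) and the muscarinic receptor Chrm1 (0.40) were also higher, and Cckbr (-0.30) was lower. Of 5 neuropeptide genes 3 were higher (Cck, Vgf at 0.99 and Scg2 at 0.79) and none lower. Hpca, which encodes hippocalcin, rose by 1.01 on the log2 scale, with 6 of 11 calcium genes higher and 4 lower (median 0.42). Of 7 immediate early genes 4 were higher, such as Egr3 (0.68), and 2 lower. In the CCN list Itgav (1.02) was higher, and Ccn2 and Itgb1 (-0.93) were lower.

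**Figure D3:**
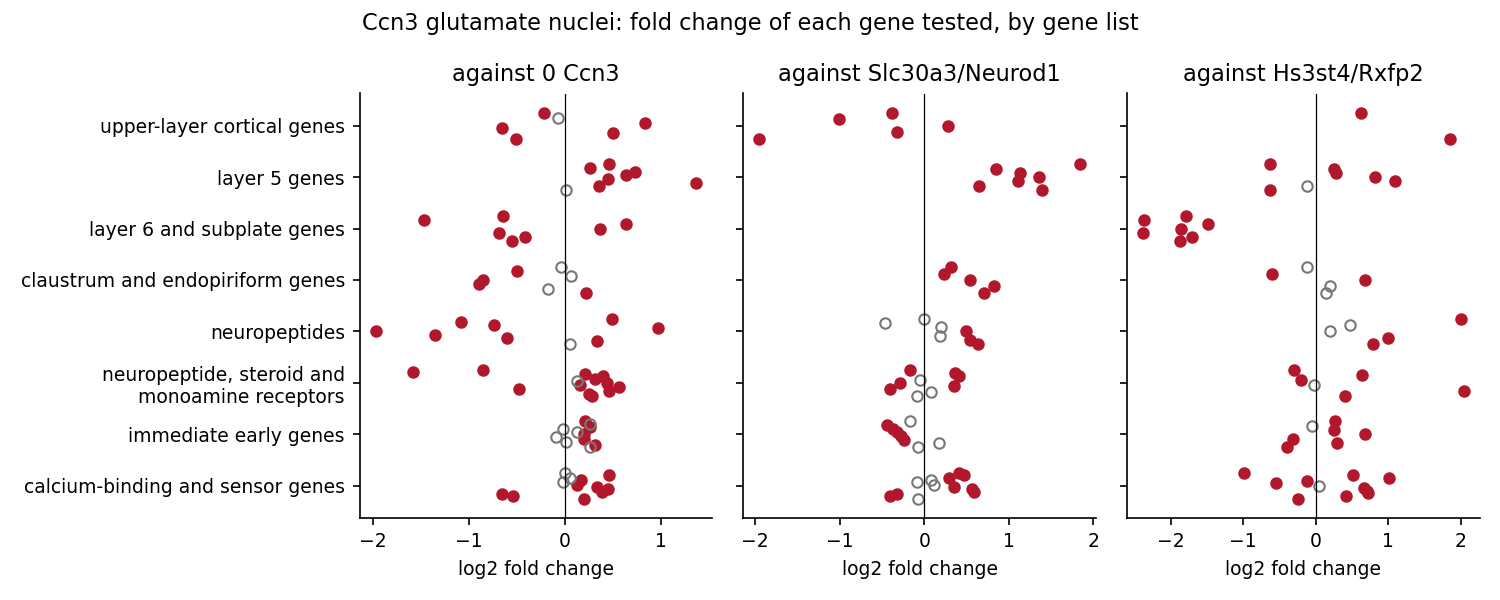
Log2 fold change of every gene tested (x axis) in 8 gene lists (y axis) for Ccn3 glutamate nuclei against each of the 3 other kinds. Filled points have an adjusted p under 0.05 in edgeR's quasi-likelihood test and open points do not; the layer 5 genes lie at or above 0.01 in the first panel and all above 0 in the second, and the layer 6 and subplate genes lie below 0 in the third.

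The level of several of these genes moved with the number of Ccn3 UMIs in a nucleus, as did depth. Of the Ccn3 glutamate nuclei 2566 (67.8%) held 1 Ccn3 UMI, 730 (19.3%) held 2 and 491 (13.0%) held 3 or more, up to 15. Their median depths were 1953, 2584 and 3550 UMIs, against 1298 in the 16163 nuclei just outside the rule with 0. Over 0, 1, 2 and at least 3 Ccn3 UMIs, Bcl6 in the summed nuclei was 42.5, 77.6, 93.4 and 145 CPM. Npr3 was 16.9, 34.1, 42.4 and 78.1 CPM, and Crym went from 76.5 CPM with 0 to 194 CPM with at least 3.

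Cck did not rise further beyond 2 Ccn3 UMIs, at 758, 1005, 1134 and 1138 CPM. Vsnl1 was 350, 437, 501 and 563 CPM, and Lamp5 169, 249, 304 and 386 CPM. In the other direction Syt6 was 114, 52.0, 30.0 and 9.60 CPM, and Penk 433, 143, 102 and 43.4 CPM. These are sums over nuclei of all animals and are given without a test.

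The same view was taken of the number of Slc17a7 UMIs. Nuclei that held Ccn3 and none of the other 6 genes numbered 1310 with 0 Slc17a7 UMIs, just outside the rule, and 669, 547 and 2571 with 1, 2 and at least 3. Their median depths were 1076, 952, 1147 and 2811 UMIs. Tbr1 was 28.1, 102, 126 and 114 CPM in these, and Cck 569, 881, 943 and 1091 CPM. Gad2 was 1085, 407, 182 and 67.4 CPM, and Penk 1217, 417, 203 and 72.3 CPM. Nuclei with a single Slc17a7 UMI were thus shallower and had a higher Gad2 level in CPM than those with 3 or more, while Tbr1 differed little between them. The source of the Gad2 and Penk RNA was not tested.

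The Ccn3 glutamate nuclei were not uniform. Among those with at least 2000 UMIs, 422 held a Fezf2 UMI (median depth 3894 UMIs) and 1677 did not (median 3130). This split was chosen after the values were seen, is made on a gene of the same nuclei, and is given as description without a test. Cck was 255 CPM in the summed nuclei with Fezf2 and 1259 CPM in those without, while Vsnl1 was 451 and 459 CPM and Ccn3 416 and 469 CPM.

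The other genes divided along the same line. With and without Fezf2, Etv1 was 300 and 60.9 CPM, Crym 258 and 77.3 CPM, Parm1 289 and 96.1 CPM, Npr3 127 and 22.2 CPM and Lamp5 548 and 230 CPM. Bcl6 was 181 and 70.8 CPM. Cux2 went the other way, at 4.26 and 60.2 CPM, as did Tbr1, at 75.2 and 118 CPM. The 258 nuclei of that depth with a Cux2 UMI had 1642 CPM of Cck and 12.3 CPM of Fezf2.

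For most of these genes the division was also seen animal by animal, in the 30 animals with at least 5 nuclei of each kind. Cck was lower with Fezf2 in 30 of 30, from 53.4 to 589 CPM (median 211) against 413 to 2074 (median 1222). Bcl6 and Parm1 were higher with Fezf2 in 30 of 30, Etv1 and Lamp5 in 29, and Npr3 and Crym in 27. Cux2 was lower in 28. The lean was weaker for Tbr1, lower with Fezf2 in 22 and higher in 8, and for Efhd2, higher in 20 and lower in 10. Vsnl1 was higher in 15 and lower in 15.

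**Figure D4:**
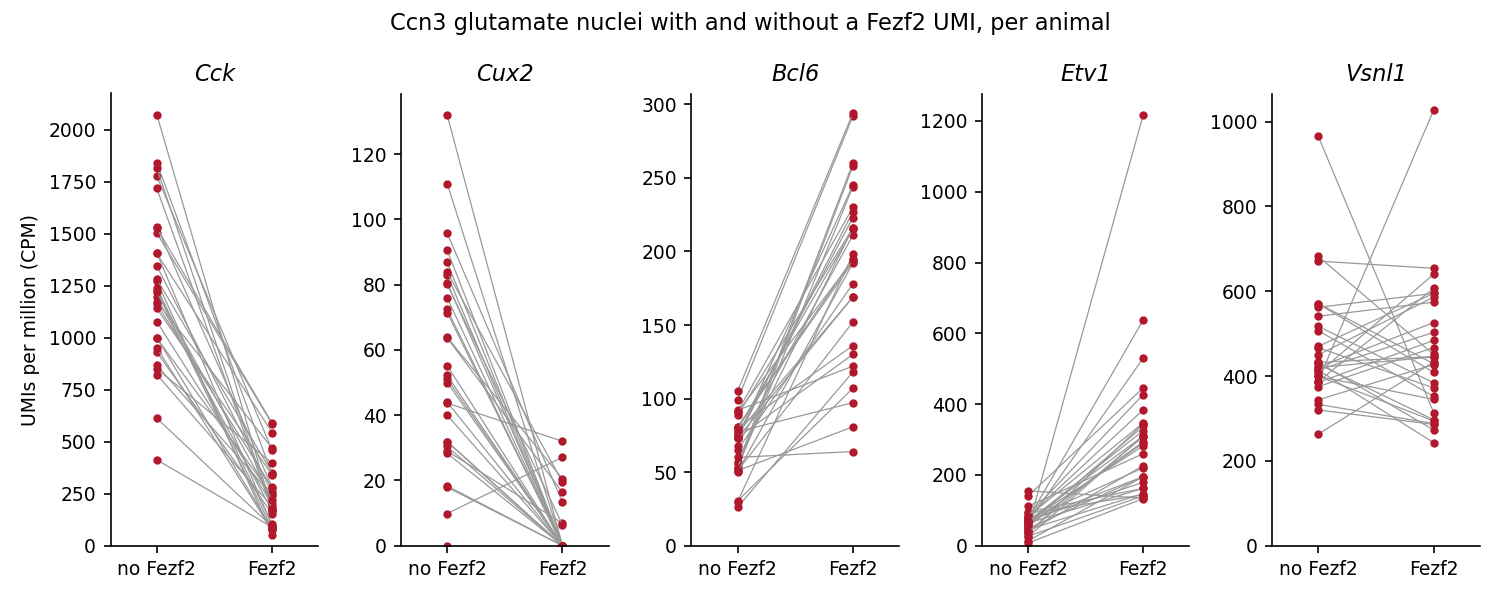
Level of 5 genes in CPM (y axes, linear from 0) in Ccn3 glutamate nuclei with at least 2000 UMIs, without and with a Fezf2 UMI (x axis). Each line joins the values of 1 of 30 animals; Cck falls in 30 of 30 and Bcl6 rises in 30 of 30 from nuclei without to nuclei with Fezf2, and Vsnl1 rises in 15.

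The share of Ccn3 glutamate nuclei among all nuclei varied widely between animals, from 0.0445% in male peer 5 to 4.36%, with a mean of 2.06% ± 0.919 (SD, n = 40). Female mates averaged 1.82% ± 0.797 (SD, n = 11) and ranged from 0.781 to 3.20%, and female peers averaged 2.29% ± 0.857 (SD, n = 8) and ranged from 0.870 to 3.26%. Male mates averaged 1.87% ± 0.678 (SD, n = 11) with a range from 0.795 to 3.38%, and male peers 2.33% ± 1.28 (SD, n = 10) with a range from 0.0445 to 4.36%. All 4 groups overlapped. Averaged over the within-sex differences, so that both sexes weigh equally, mates differed from peers by -0.462 percentage points (SE 0.298), which did not pass a two-sided permutation test (p = 0.117, adjusted p = 0.611 over 6 tests).

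Among Slc17a7 nuclei only, female mates had a share of 9.65% ± 2.19 (SD, n = 11) and female peers of 10.1% ± 2.29 (SD, n = 8). For male mates it was 8.48% ± 2.17 (SD, n = 11), and for male peers 9.97% ± 2.77 (SD, n = 10). The difference of mates from peers was -0.962 points (SE 0.756, permutation p = 0.204, adjusted p = 0.611). Females differed from males by -0.0440 points among all nuclei (permutation p = 0.885) and by 0.637 points among Slc17a7 nuclei (permutation p = 0.405). The pairing difference did not pass a test of its difference between the sexes on either scale (permutation p = 0.984 and 0.474).

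A stricter rule of at least 2 Ccn3 UMIs gave shares of 0.538% ± 0.267 in mates (SD, n = 22) and 0.825% ± 0.468 in peers (SD, n = 18). The mean of the within-sex differences was -0.294 points and had a permutation p of 0.0182, but an adjusted p of 0.0593 over the 6 tests. Among Slc17a7 nuclei the corresponding difference was -0.988 points (permutation p = 0.0198, adjusted p = 0.0593).

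**Figure D5:**
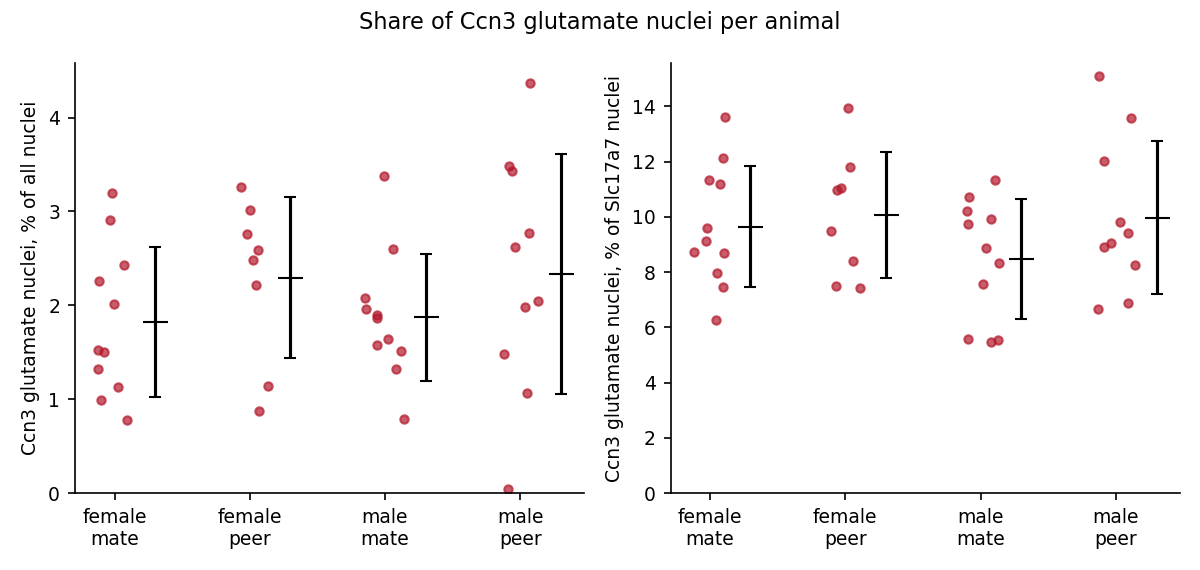
Share of Ccn3 glutamate nuclei per animal (y axes, percent, linear from 0) among all nuclei and among Slc17a7 nuclei, by group (x axis). Each point is 1 animal, and black bars are mean and SD; the 4 groups overlap in both panels, and the lowest share of all nuclei, 0.0445%, is in a male peer.

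Across the 40 animals, the share of Ccn3 glutamate nuclei went with the shares of the other glutamate nuclei. Pearson's r with the share of Slc30a3 or Neurod1 nuclei was 0.54 (permutation adjusted p = 0.000435 over 3 correlations) and Spearman's rho 0.54 (permutation adjusted p = 0.000735). With Hs3st4 or Rxfp2 nuclei r was 0.41 and rho 0.43 (permutation adjusted p = 0.00778 and 0.00654). With Drd1a or Drd2 nuclei without Slc17a7, r was -0.76 and rho -0.75 (permutation adjusted p = 3.00e-05, from the smallest p these resamples can give). Without the 2 animals farthest from the median of the other share, r was 0.54, 0.44 and -0.67. All of these shares have the same denominator within an animal, so they are not independent, and the part of the dissection was not tested.

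Between pairing groups, no gene was called within the Ccn3 glutamate nuclei. Of 7010 genes tested in 39 animals, edgeR's quasi-likelihood test called 0 (0%) for mates against peers and DESeq2 called 0 too. An unadjusted edgeR p under 0.05 was seen for 320 genes (4.56%). The genes with the lowest p were Tecpr1 (log2 fold change 0.49), Gpc4 (-0.54) and Zfp609 (0.45), all with an adjusted p of 0.804. Cck averaged 1056 CPM ± 403 (SD, n = 22) in mates and 984 ± 321 (SD, n = 17) in peers, and Vsnl1 471 ± 102 and 504 ± 128. None of the 4 markers outside the rule had an unadjusted p under 0.05. Tbr1 came nearest, at 122 CPM ± 31.1 in mates (SD, n = 22) and 104 ± 20.4 in peers (SD, n = 17), with an edgeR adjusted p of 1.000. In females alone its log2 fold change was 0.41 (SE 0.16, edgeR unadjusted p = 0.0117, adjusted p = 1.000).

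The same held within each sex. For females alone both edgeR and DESeq2 called 0 genes (0%), and 291 (4.15%) had an edgeR p under 0.05 before adjustment. The lowest was that of Gpc4 (-0.86, edgeR adjusted p = 1.000), which encodes a glypican. For males alone both tools called 0 (0%), and 205 (2.92%) had an edgeR p under 0.05 before adjustment. The pairing effect differed between the sexes for 0 genes (0%) by either tool, with 199 (2.84%) under 0.05 before adjustment in edgeR.

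Females and males differed in 2 genes (0.0285%), both higher in females, and DESeq2 called 2 as well, while 323 (4.61%) had an edgeR p under 0.05 before adjustment. Kdm5c, a histone demethylase gene of the X chromosome in mammals, ranged from 113 to 244 CPM (median 187) in females and from 84.6 to 171 (median 128) in males, with overlapping ranges. Its log2 fold change was 0.63 (SE 0.09, edgeR adjusted p = 7.19e-05). Kdm6a, another X-linked histone demethylase gene, ranged from 143 to 284 CPM in females and from 0 to 217 in males. Its fold change on the log2 scale was 0.60 (SE 0.12, edgeR adjusted p = 0.0162). With nuclei thinned to 1000 UMIs neither passed, at log2 fold changes of 0.82 for Kdm5c (edgeR adjusted p = 0.125) and 0.38 for Kdm6a (edgeR adjusted p = 0.766). With at least 2 Ccn3 UMIs only Kdm5c was called, and Kdm6a was at 0.61 (edgeR adjusted p = 0.235). Cckbr had a log2 fold change of -0.37 between females and males and did not pass (edgeR adjusted p = 0.408).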

How the data were processed

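The authors deposited unnormalised UMI counts for each gene in each barcode, made with Cell Ranger 3.1.0 per the submitters' processing notes. The genome build is not given in the sources used here. Barcodes were used from 500 UMIs upward if no more than 5% came from 13 mitochondrial genes, and the rule was applied to these counts. Doublets were scored against simulated ones at an assumed 0.8% per 1000 barcodes and kept in the main results. Counts were summed per animal and kind of nucleus, with at least 20 nuclei. Kinds were compared by edgeR 4.0.16 (R 4.3.3) quasi-likelihood tests with an animal term, TMM factors and filterByExpr, and groups by 1 mean per group. A gene was called at an adjusted p (Benjamini-Hochberg) below 0.05. Shares were compared by two-sided permutation tests with 100000 resamples. The tests were tested on simulated data.

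The members, the 20 gene lists (221 genes, of which 208 were used and 13 not analysed here) and the tests were chosen with earlier results of these data known. Genes were named from those lists and by size: the 12 (or 8) largest log2 fold changes in each direction among called genes with at least 20 CPM and the same sign in 80% of animals, and for group contrasts up to 5 called genes or the 3 with the lowest p. Alternatives were DESeq2 1.42.0, no filter, thinning to 1000 UMIs, a minimum of 1000 UMIs per nucleus for shares, at least 2 Ccn3 UMIs, doublets left out, male mate 2 left out and at least 10 or 40 nuclei per animal. At least 3 Slc17a7 UMIs and library totals without TMM factors were added after seeing the data. A few genes that these rules name are not reported here.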

Additional observations from a re-analysis of the deposited data

Results flagged for a closer look

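Of 118 groups of 8 to 10 animals tested over 59 measures, 18 (15.3%) held an animal far from all others of its group. For normally distributed values chance flags about 1 in 20 groups. The values tested here are bounded below, and all 18 flagged values were the highest of their group. The 15.3% therefore cannot show an excess over chance. All 18 flags are levels in Ccn3 glutamate nuclei in female or male peers, since the mate groups were too large for this test. Efhd2 was 357 CPM in male peer 2 against 171 to 252 in the other male peers.

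Female peer 6 stood apart in several oligodendrocyte genes, with 133 CPM of Cldn11 (others 0 to 35.2), 97.9 of Mag (0 to 22.4), 47.7 of Mog (0 to 14.0) and 45.2 of Ugt8a (0 to 20.5), and in Plk5 with 55.2 (0 to 24.4). Female peer 4 stood apart in Syt6 with 116 CPM (2.51 to 37.9), Fetub with 86.8 (5.02 to 37.9), Lgi4 with 57.9 (0 to 20.5) and Adamts18 with 28.9 (0 to 6.98). Male peer 1 did so in Ndst3 with 325 CPM (111 to 216), Fsip2 with 126 (12.6 to 59.3) and Trmt9b with 72.2 (24.2 to 47.2). Female peer 4 had only 30 Ccn3 glutamate nuclei with 103630 UMIs in all, and male peer 1 had 47 with 110815 UMIs. The lower of their flagged levels thus rest on few UMIs.

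Single flags were Vat1l at 286 CPM in female peer 3 (28.9 to 97.7), Ptprb at 94.4 in female peer 5 (17.4 to 39.3), Ugt8a at 82.1 in male peer 6 (0 to 27.6), Slc7a11 at 69.8 in male peer 8 (0 to 24.2) and Fetub at 44.0 in male peer 7 (0 to 20.7).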

How the results depend on the processing

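The share tests missed the threshold under each alternative run. Differences that changed sign were that of females from males among all nuclei with at least 2 Ccn3 UMIs (0.0800 points), that of the pairing difference between the sexes among all nuclei without male mate 2 (0.00883) and with at least 3 Slc17a7 UMIs (0.125), and the same among Slc17a7 nuclei thinned (-1.59) and with at least 2 Ccn3 UMIs (-0.0861). Thinning to 1000 UMIs gave 985 called genes of 4667 tested against Ccn3-free nuclei, 703 of 1275 against Slc30a3 or Neurod1 nuclei and 1047 of 1604 against Hs3st4 or Rxfp2 nuclei, with fewer genes tested. It gave 0 genes for sex, and at least 2 Ccn3 UMIs gave 1. Without male mate 2, 2966, 3269 and 3756 genes were called in the 3 comparisons of kinds. Without the filter 38.7% of calls against Ccn3-free nuclei were higher. Without TMM factors 41.8% and 42.9% of the calls against the other kinds were higher, where the main shares were 49.6% and 49.3%.

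For 172 pairs of a named gene and a comparison, 1559 values could be computed under the alternatives, of which 1524 kept direction and side of the threshold, 20 lost and 6 gained the threshold, and 9 changed sign. Thinning left many named genes untested. Of 63 genes against Ccn3-free nuclei 22 kept both, 5 lost the threshold and 3 changed sign, of 45 against Slc30a3 or Neurod1 nuclei 11 kept both, 2 lost it and 1 changed sign, and of 50 against Hs3st4 or Rxfp2 nuclei 23 kept both. Over all alternatives, the changes of sign against Ccn3-free nuclei were Efhd2 thinned (0.06), without doublets (0.01) and with at least 40 nuclei (0.01), Tbr1 thinned (0.06), Fezf2 thinned (-0.08) and Cckbr with at least 3 Slc17a7 UMIs (-0.13). Against Slc30a3 or Neurod1 nuclei they were Cck thinned (0.22), with at least 2 Ccn3 UMIs (0.04) and without male mate 2 (0.00). The cause was not tested. No paired analysis was possible because replicate numbers only name animals within a group, so animals of different groups could not be paired. Kinds of nuclei were compared within animals. Within the 491 nuclei with most Ccn3, and in thinned sums, few UMIs per gene limit what can be seen.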
